A study of Mus musculus with 9 samples.

Results

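Heavy chain variable (Ighv) genes were followed through 9 mouse B-cell lymphomas. They were taken as all rows of the count table whose symbol begins with Ighv and whose counts sum to at least 10 over the 9 tumors. This rule selected 102 of 114 Ighv rows, out of 41128 genes in the table, and the 12 rows left out held at most 7 counts each. The tumors came from 3 Bcl6 and 6 Smc3/Bcl6 mice, with 1 library of lymph node lymphoma cells per tumor. Bcl6 mice carried Smc3 wt/wt;Cγ1 wt/cre;IµBcl6 and Smc3/Bcl6 mice carried Smc3 wt/–;Cγ1 wt/cre;IµBcl6, so both genotypes shared the IµBcl6 allele, which keeps the germinal center repressor Bcl6 expressed, and the Cγ1-cre allele, a recombinase switched on when B-cells join the germinal center reaction. Both shared alleles lie within the heavy chain locus that also holds the variable genes. Ages were not given for these tumors. Replicate 1 of each genotype is labelled mesenteric lymph node and the others lymph node. The paper describes the sequenced lymphoma cells of both genotypes as coming from mesenteric lymph nodes, so the labels need not mark different sites. No label says more about how the tumors relate, so the p-values below measure only the spread between these samples.

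A heavy chain is assembled when a developing B-cell joins a variable, a diversity and a joining segment of the locus, and the joined exon is then transcribed with a constant gene. A B-cell and its daughters keep that choice, so the variable gene transcribed is a mark that a clone carries, and germinal center B-cells further mutate the joined exon. In a normal lymph node many variable genes are in use, whereas a lymphoma that grew from a single cell would be led by the gene of that cell. Variable genes are grouped into families by sequence, and the number after Ighv in a symbol gives the family.

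Among the 102 genes, 93 carried the biotype IG_V_gene in GENCODE M21, none as a pseudogene, and 9 were not found there. The 93 lay on the minus strand of chromosome 12 of GRCm38 (chr12:113578504-116000461) and had exon lengths of 294 to 480 bases. The total count per library ranged from 10156728 to 17774577. Ighv genes took 14314, 8279 and 8512 counts in Bcl6 tumors 1 to 3 and 26758, 58643, 9192, 50008, 6957 and 25538 in Smc3/Bcl6 tumors 1 to 6, or 0.0490% to 0.429% of all counts. In bulk RNA, fewer B-cells and less transcript per B-cell cannot be told apart, and shares within the Ighv counts were therefore used first. Smc3, the targeted gene, had 88.1 to 126 CPM (counts on a common library size, after TMM) in the Bcl6 tumors. It had 27.9 CPM in Smc3/Bcl6 tumor 2 and 89.7 to 111 CPM in the other 5, and the log2 fold change was -0.19 (SE 0.38). The B-cell partners of the receptor, Cd79a and Cd79b, ranged from 277 to 2303 CPM over the tumors. Among marker lists, 0 of 6 B-cell, 0 of 3 naive B-cell, 0 of 6 T-cell, 0 of 6 macrophage and 0 of 4 stroma genes passed the thresholds between genotypes that are given with the single genes and 1 of 6 germinal center genes (Mybl1, lower) and 2 of 5 neutrophil genes (Mpo and Elane, lower) did.

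The genes below carry most of what follows, and their V exons, which encode nearly all of the variable domain before the diversity segment, are shown from GENCODE M21 on GRCm38. Each is given 5′ to 3′ on the minus strand as the first 300 bases of the exon. Ighv3-1 (chr12:113964395-113964694) and Ighv3-8 (chr12:114322378-114322677) led together in 3 tumors, and capitals mark bases that differ from, or have no aligned base in, the other of the pair.
Ighv3-1: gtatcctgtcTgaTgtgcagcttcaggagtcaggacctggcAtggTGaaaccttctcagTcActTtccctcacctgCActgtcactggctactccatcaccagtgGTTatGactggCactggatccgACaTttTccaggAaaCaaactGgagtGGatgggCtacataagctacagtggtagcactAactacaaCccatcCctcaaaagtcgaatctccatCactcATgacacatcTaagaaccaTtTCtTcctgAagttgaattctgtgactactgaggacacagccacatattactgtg
Ighv3-8: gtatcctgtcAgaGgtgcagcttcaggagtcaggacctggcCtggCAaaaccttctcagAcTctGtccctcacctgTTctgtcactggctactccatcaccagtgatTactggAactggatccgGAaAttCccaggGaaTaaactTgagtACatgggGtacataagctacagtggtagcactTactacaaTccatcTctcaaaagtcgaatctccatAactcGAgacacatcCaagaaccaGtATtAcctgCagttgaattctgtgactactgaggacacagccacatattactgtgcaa
Ighv1-64 (chr12:115507550-115507849) and Ighv1-56 (chr12:115242807-115243106) led together in 2 tumors, and capitals again mark bases that differ within the pair.
Ighv1-64: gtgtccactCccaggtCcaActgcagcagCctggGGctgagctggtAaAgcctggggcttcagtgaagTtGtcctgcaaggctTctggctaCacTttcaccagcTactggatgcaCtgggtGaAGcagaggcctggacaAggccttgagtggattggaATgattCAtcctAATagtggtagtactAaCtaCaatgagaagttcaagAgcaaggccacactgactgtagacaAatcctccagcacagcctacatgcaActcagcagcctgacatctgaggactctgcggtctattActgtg
Ighv1-56: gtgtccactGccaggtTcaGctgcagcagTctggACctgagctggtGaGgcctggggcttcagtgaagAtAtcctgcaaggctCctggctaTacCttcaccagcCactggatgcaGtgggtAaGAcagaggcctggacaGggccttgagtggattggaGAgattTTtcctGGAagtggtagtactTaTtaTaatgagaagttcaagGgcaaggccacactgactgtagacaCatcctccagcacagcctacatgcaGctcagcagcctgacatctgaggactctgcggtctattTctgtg
Ighv8-12 (chr12:115647957-115648256) and Ighv9-4 (chr12:114299966-114300265) each led 1 tumor. Their capitals mark bases that differ from, or have no aligned base in, the closest other member, Ighv8-13 and Ighv9-3.
Ighv8-12: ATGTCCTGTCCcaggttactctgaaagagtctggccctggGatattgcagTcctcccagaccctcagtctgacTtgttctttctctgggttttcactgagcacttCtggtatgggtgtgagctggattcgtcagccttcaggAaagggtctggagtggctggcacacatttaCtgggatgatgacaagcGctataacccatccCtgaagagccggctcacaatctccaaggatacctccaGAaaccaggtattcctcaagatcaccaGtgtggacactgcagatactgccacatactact
Ighv9-4: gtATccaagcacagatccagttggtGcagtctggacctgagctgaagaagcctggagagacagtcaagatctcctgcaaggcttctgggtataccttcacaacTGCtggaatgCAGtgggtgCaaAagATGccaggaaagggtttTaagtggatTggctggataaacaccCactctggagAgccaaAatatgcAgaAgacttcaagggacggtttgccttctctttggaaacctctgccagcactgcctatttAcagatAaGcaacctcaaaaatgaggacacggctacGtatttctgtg
Ighv3-1 and Ighv3-8 were identical at 88.5% of 304 aligned bases, and their longest identical stretch was 50 bases. Ighv1-64 and Ighv1-56 were identical at 89.2% of 305 aligned bases, and Ighv8-12 matched Ighv8-13 at 96.3%. Reads that lie within such a stretch cannot be placed on 1 of the pair, and how reads that map to several genes were treated is not given in the sources used here.

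**Figure D1:**
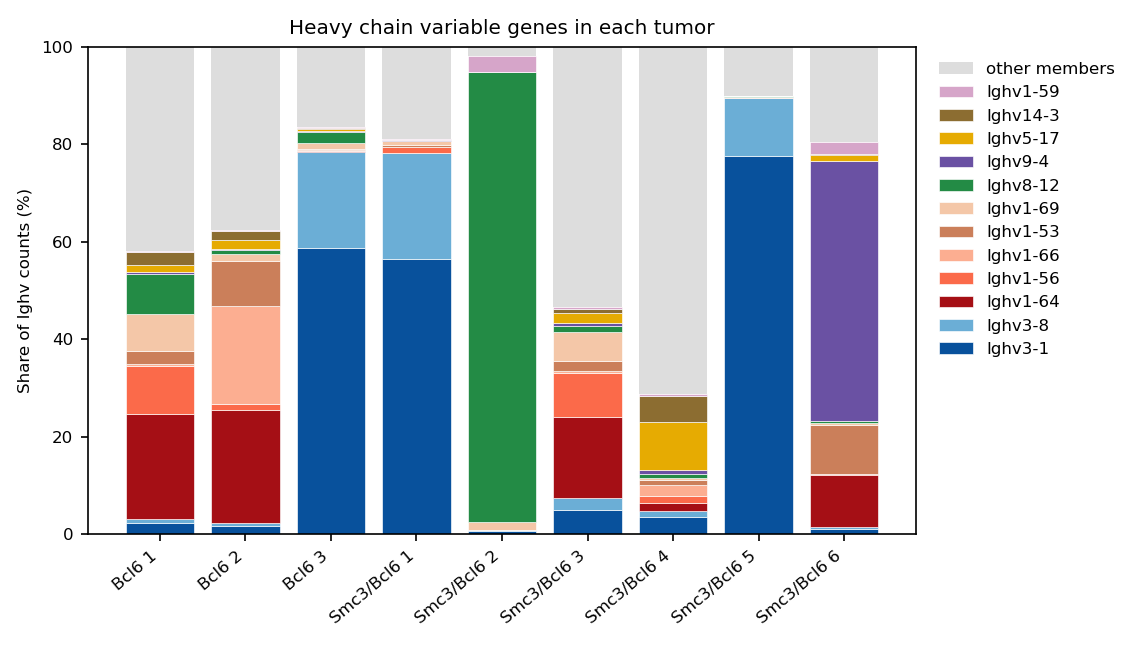
Stacked bars give the share of Ighv counts (%) of 12 genes and of the other members in each tumor, 3 Bcl6 and 6 Smc3/Bcl6. Ighv3-1 and Ighv3-8 fill most of Bcl6 3 and Smc3/Bcl6 1 and 5, Ighv8-12 takes 92.4% of Smc3/Bcl6 2, Ighv9-4 takes 53.5% of Smc3/Bcl6 6, and no gene exceeds 9.77% in Smc3/Bcl6 4.

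The gene with the most counts was one of 5 genes over the 9 tumors. Ighv3-1 led 3 tumors, with 58.8% of Ighv counts in Bcl6 tumor 3 (95% Wilson interval 57.7% to 59.8%, covering counting error only), 56.5% in Smc3/Bcl6 tumor 1 (55.9% to 57.1%) and 77.6% in Smc3/Bcl6 tumor 5 (76.6% to 78.6%). In the other 6 tumors it took between 0.667% and 4.89%, so it was either the leading gene or a minor one. Ighv1-64 also led 3 tumors, with 21.6% in Bcl6 tumor 1, 23.1% in Bcl6 tumor 2 and 16.7% in Smc3/Bcl6 tumor 3. Elsewhere it took 10.8% in Smc3/Bcl6 tumor 6, where it ranked behind Ighv9-4, 1.64% in Smc3/Bcl6 tumor 4 and at most 0.115% in the remaining 4 tumors. Both genes thus led in tumors of both genotypes. The remaining 3 tumors had leaders of their own, all of them Smc3/Bcl6.

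Ighv8-12 took 92.4% of Ighv counts in Smc3/Bcl6 tumor 2 (Wilson interval 92.2% to 92.6%), the highest share of any gene in these tumors. Its next highest share was 8.13% in Bcl6 tumor 1, and it ranged down to 0.0411% in Smc3/Bcl6 tumor 1. The near-identical Ighv8-13 held 17 counts in Smc3/Bcl6 tumor 2 against 54179 for Ighv8-12. Ighv9-4 took 53.5% in Smc3/Bcl6 tumor 6 (52.9% to 54.2%) and at most 0.846% in each of the other 8 tumors. Its closest relative Ighv9-3 had 289 counts in that tumor against 13674. Ighv5-17 led Smc3/Bcl6 tumor 4 with only 9.77% (9.51% to 10.03%) and took between 0.0144% and 2.01% elsewhere.

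The gene ranked next was a family 3 gene wherever Ighv3-1 led. Ighv3-8 took 19.7% in Bcl6 tumor 3, 21.8% in Smc3/Bcl6 tumor 1 and 11.8% in Smc3/Bcl6 tumor 5, and between 0.0989% and 2.51% in the other 6 tumors. The ratio of Ighv3-1 to Ighv3-8 counts was 2.99, 2.595 and 6.57 in the 3 tumors they led. In tumors where both were minor the ratio was 2.94 and 2.71 in Bcl6 tumors 1 and 2 and 1.94, 2.58 and 2.49 in Smc3/Bcl6 tumors 3, 4 and 6, so that 7 of 9 tumors lay between 1.94 and 2.99, and Smc3/Bcl6 tumor 2 was at 6.74. How far reads of Ighv3-1 were counted on Ighv3-8 was not tested.

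Where Ighv1-64 led, the gene ranked next varied. It was Ighv1-56 in Bcl6 tumor 1 (9.96%) and in Smc3/Bcl6 tumor 3 (8.95%), and Ighv1-66 in Bcl6 tumor 2, at 20.2% nearly equal to the 23.1% of Ighv1-64. Ighv1-66 did not exceed 2.25% in any other tumor, and Ighv1-56 did not exceed 1.38% outside the tumors named for it. Ighv1-53, which shares 95.4% of its V exon bases with Ighv1-64, took 10.02% in Smc3/Bcl6 tumor 6, 9.19% in Bcl6 tumor 2 and at most 2.56% elsewhere. Behind Ighv8-12 in Smc3/Bcl6 tumor 2 came Ighv1-59 with 3.38%, or 3.66% of its leader, and behind Ighv5-17 in Smc3/Bcl6 tumor 4 came Ighv14-3 with 5.26%, or 53.8% of its leader. With counts divided by exon length, the leading gene was the same in 9 of 9 tumors and the gene ranked next in 6 of 9.

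Evenness differed widely between tumors of each genotype. The effective number of genes, which is the exponential of the Shannon index and equals the number of genes that would give that index if all were used alike, was 27.8, 22.3 and 4.71 in Bcl6 tumors 1 to 3. In Smc3/Bcl6 tumors 1 to 6 it was 4.64, 1.49, 36.8, 51.1, 2.57 and 7.43. Both the lowest and the highest value were therefore Smc3/Bcl6, and the genotypes overlapped. Ighv3-1-led tumors had effective numbers from 2.57 to 4.71, and Ighv1-64-led tumors from 22.3 to 36.8. Tumors with the same leader were thus also alike in evenness, a measure that the share of the leading gene itself largely sets. The mean was 18.3 ± 12.1 (SD, n = 3) in Bcl6 and 17.3 ± 21.2 (SD, n = 6) in Smc3/Bcl6 tumors.

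The share of the leading gene averaged 34.5% ± 21.1 (SD, n = 3) in Bcl6 and 51.1% ± 32.7 (SD, n = 6) in Smc3/Bcl6 tumors, a difference smaller than the SD within Smc3/Bcl6. No test was made of this difference, since it summarizes the genes under study. The number of genes needed for 90% of the Ighv counts was 37, 35 and 5 in the Bcl6 tumors and 5, 1, 47, 51, 3 and 13 in the Smc3/Bcl6 tumors. A single gene was enough in Smc3/Bcl6 tumor 2, whereas 51 were needed in Smc3/Bcl6 tumor 4, and these tumors had similar Ighv depth (58643 and 50008 counts). Of the 102 genes, 61 to 102 had a count in a given tumor, and 42 had a count in all 9.

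**Figure D2:**
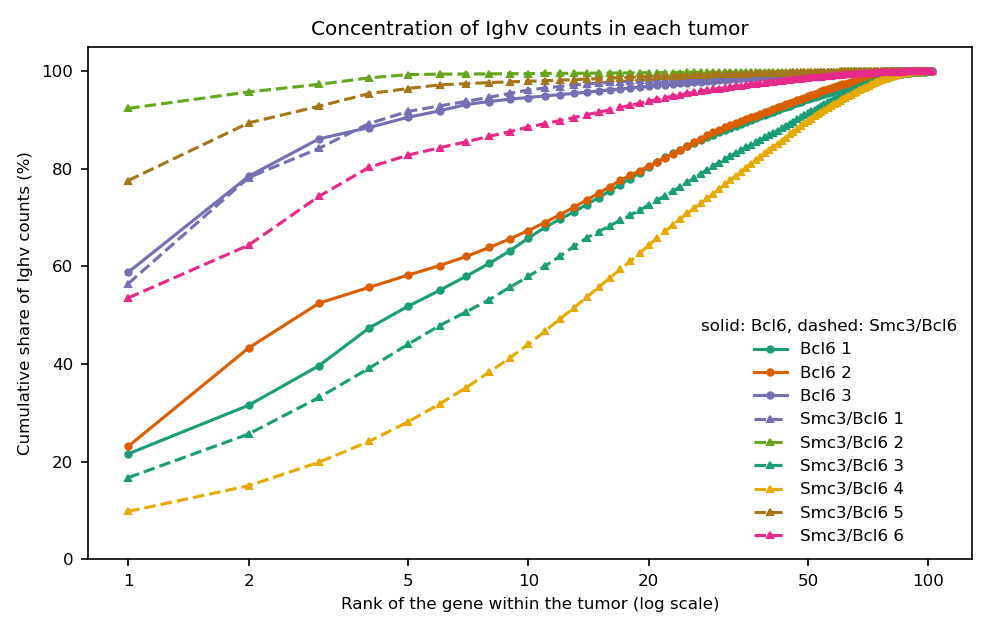
Cumulative share of Ighv counts (%) against the rank of the gene within each tumor (log scale), with solid lines for Bcl6 and dashed lines for Smc3/Bcl6. The curves of Bcl6 3 and Smc3/Bcl6 1 nearly coincide near the top, and Smc3/Bcl6 4 rises most slowly, reaching 90% at 51 genes.

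The sum of naive B-cell markers moved with evenness, though not every marker in it did. The summed CPM of 3 naive markers (Fcer2a, the low-affinity IgE receptor, Ccr6, a chemokine receptor, and Klf2, a transcription factor, with no row for Ighd) was 818 in Smc3/Bcl6 tumor 4, 369 and 297 in Bcl6 tumors 1 and 2 and 338 in Smc3/Bcl6 tumor 3, the 4 tumors with the highest effective numbers. It was 129 in Bcl6 tumor 3, and 128, 48.5, 93.1 and 109 in Smc3/Bcl6 tumors 1, 2, 5 and 6, and the effective numbers of these 5 tumors were all below 8. Fcer2a and Klf2 were each higher in all of the 4 tumors with the highest effective numbers than in any of the other 5. Ccr6 was not. It had 24.9 and 47.1 CPM in Bcl6 tumors 1 and 2 and 44.4 CPM in Smc3/Bcl6 tumor 3, against 67.2 CPM in Smc3/Bcl6 tumor 1. Its highest value was 83.1 CPM in Smc3/Bcl6 tumor 4 and its lowest 0.952 CPM in Smc3/Bcl6 tumor 2. None of the 3 naive markers was at 0 in any tumor, and the part of naive B-cells in the evenness was not tested. T-cell marker sums did not follow the same order, at 97.1, 1643 and 1330 CPM in Bcl6 and 26.2 to 1715 CPM in Smc3/Bcl6 tumors. Plasma cell markers, whose cells carry much immunoglobulin transcript, summed to 1722, 2114 and 1834 CPM in Bcl6 tumors. In Smc3/Bcl6 tumors their sum was 4921, 5559, 884, 3789, 2352 and 3047 CPM, and 0 of 7 passed the thresholds between genotypes. The 2 tumors with the highest plasma cell sums, Smc3/Bcl6 1 and 2, were led by different genes.

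Most members were minor everywhere. Of the 102, 60 never reached more than 1% of a tumor, 13 did so in 1 tumor, and 29 in 2 or more. Ighv3-1 did so in 7 tumors and Ighv3-6 in 6, ranging from 0.0119% to 3.19%, whereas no gene did so in all 9. Only 7 genes exceeded 10% in any tumor, namely Ighv3-1, Ighv3-8, Ighv1-64, Ighv1-53, Ighv1-66, Ighv8-12 and Ighv9-4. Between these extremes, Ighv1-69 took 7.71% in Bcl6 tumor 1 and 5.99% in Smc3/Bcl6 tumor 3 and at most 1.55% elsewhere. Ighv6-3 took 3.99% in Smc3/Bcl6 tumor 4 and 3.42% in Smc3/Bcl6 tumor 5, and Ighv7-3 took 4.84% in Smc3/Bcl6 tumor 4 and 2.50% in Bcl6 tumor 2.

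By family, the 102 genes fell into 15 number families, of which family 1, the largest with 51 members, took 59.8%, 69.3% and 11.7% of the Ighv counts in Bcl6 tumors 1 to 3. In Smc3/Bcl6 tumors 1 to 6 it took 16.4%, 6.47%, 61.3%, 32.9%, 1.19% and 36.01%. Family 3, with 5 members, was high in 3 tumors where family 1 was low. It took 4.54%, 3.73% and 79.9% in Bcl6 tumors and 79.0%, 0.778%, 9.25%, 8.14%, 90.5% and 2.01% in Smc3/Bcl6 tumors. The mean difference between genotypes (Smc3/Bcl6 minus Bcl6) was -21.2 percentage points for family 1 and 2.24 for family 3, with SDs of 22.3 and 41.5 within Smc3/Bcl6, and the genotypes overlapped in all 15 families. For family 1 the difference was -10.05 without Bcl6 tumor 2 and -38.9 without Bcl6 tumor 3.

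Inside family 1 the counts were spread, with the leading member taking between 8.79% and 65.7% of the family. Ighv1-64 headed it in 4 tumors, Ighv1-9 in 3 (Smc3/Bcl6 1, 4 and 5), Ighv1-12 in Bcl6 tumor 3 and Ighv1-59 in Smc3/Bcl6 tumor 2. Inside family 3, by contrast, Ighv3-1 headed all 9 tumors and took 41.7% to 85.8% of the family. Families 8 and 9 were each large in a single tumor, family 8 with 92.5% in Smc3/Bcl6 tumor 2 and family 9 with 55.2% in Smc3/Bcl6 tumor 6, against at most 12.1% and 6.98% in other tumors. Families 12, 13 and 15, with 1 member each, stayed at or below 0.435% throughout. Families follow the symbols of the count table, and 2 members carry another symbol in GENCODE M21. Ighv13-2, the member of family 13, is Ighv6-7 there, and Ighv1-14 is Ighv1-16.

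The place of the genes along the locus was not used to choose them. Heavy chain variable genes lie in a row, and those with the lowest coordinates lie nearest to the diversity and joining segments. The 93 placed genes, which held 93.9% to 99.96% of the Ighv counts of a tumor, were cut into 3 runs of 31 genes. The near run spanned 0 to 598 kb from its first member, the middle run 618 to 1413 kb and the far run 1446 to 2422 kb.

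Near genes took most of the placed counts wherever Ighv3-1 led, with 64.2% in Bcl6 tumor 3, 61.5% in Smc3/Bcl6 tumor 1 and 79.6% in Smc3/Bcl6 tumor 5. Ighv3-1 lies 386 kb from the first member. Far genes took 63.3% and 64.3% in Bcl6 tumors 1 and 2 and 48.0% in Smc3/Bcl6 tumor 3, all led by Ighv1-64 at 1929 kb, and 97.6% in Smc3/Bcl6 tumor 2, led by Ighv8-12 at 2069 kb. In Smc3/Bcl6 tumor 6 the middle run took 65.0%, around Ighv9-4 at 722 kb. Smc3/Bcl6 tumor 4 was the most evenly divided, with 49.1% near, 29.8% middle and 21.1% far. Tumors of both genotypes thus lay at either end of the locus.

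**Figure D3:**
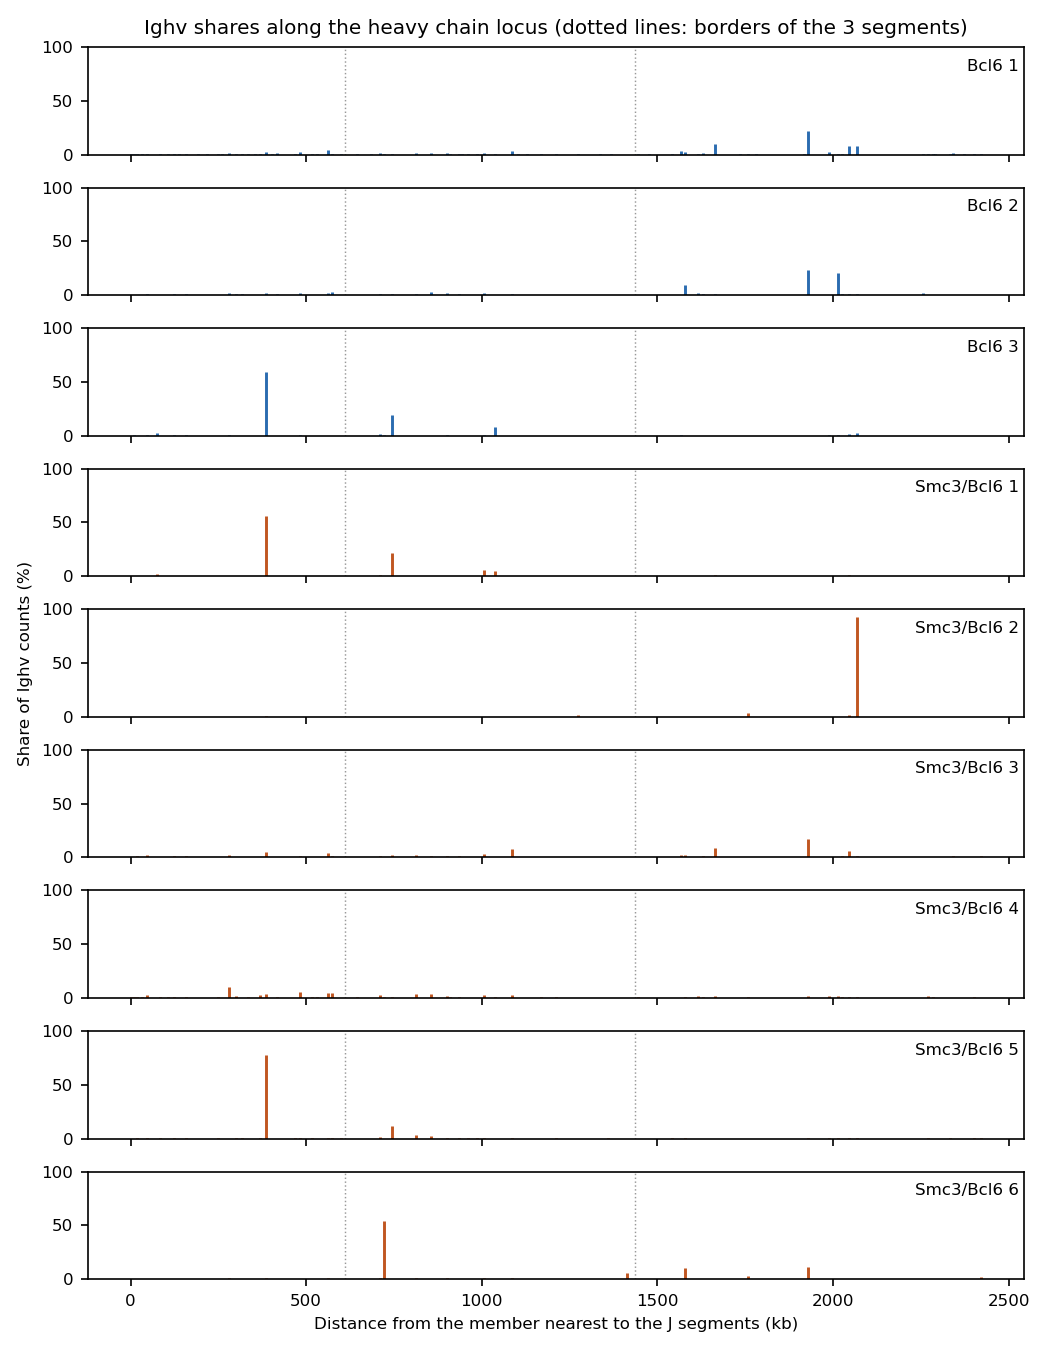
Vertical lines give the share of Ighv counts (%) of each of 93 genes at its distance (kb) from the member nearest to the joining segments, 1 panel per tumor, blue for Bcl6 and orange for Smc3/Bcl6, with dotted lines at the borders of the near, middle and far runs. A tall line stands at 386 kb in Bcl6 3 and Smc3/Bcl6 1 and 5, at 1929 kb in Bcl6 1 and 2 and Smc3/Bcl6 3, and at 2069 kb in Smc3/Bcl6 2.

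How far tumors used the same genes was measured as the sum, over genes, of the smaller of their shares, so that 100% means identical usage. The most alike of all 36 pairs were Bcl6 tumor 3 and Smc3/Bcl6 tumor 1, of different genotypes, at 88.4%. They shared minor genes as well as Ighv3-1 and Ighv3-8. Ighv1-12 took 7.68% in Bcl6 tumor 3 and 5.09% in Smc3/Bcl6 tumor 1 and at most 0.592% in the other 7 tumors, and Ighv2-4 took 2.09% and 2.47% against at most 0.178%. With the leading gene of each tumor left out and shares recomputed, they remained the most alike pair, at 76.4%. They did not stand out across the rest of the transcriptome. Over genes other than immunoglobulin genes their Spearman correlation across genes, 0.919, ranked 20 of 36 pairs.

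Bcl6 tumor 1 and Smc3/Bcl6 tumor 3 came next at 77.5%, again of different genotypes, and at 75.0% without their leading genes. Smc3/Bcl6 tumor 5 shared 74.7% with Bcl6 tumor 3 and 70.8% with Smc3/Bcl6 tumor 1, but Ighv1-12 had 1 count and Ighv2-4 had 0 counts of 6956 there, where 0 counts allow a share of up to 0.0431%. Smc3/Bcl6 tumor 2 was the least like the others, sharing 1.29% to 11.4% with each. It was also the least like them over genes other than immunoglobulin genes. There its Spearman correlations, 0.769 to 0.880, held ranks 29 to 36 of the 36 pairs. The 6 pairs with the same leading gene shared 56.8% to 88.4%, and the 30 pairs with different leaders 1.29% to 54.0%, a split that the leading gene itself largely sets.

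Similarity within and between genotypes overlapped. The 18 pairs within a genotype had a median similarity of 14.9% (range 1.29% to 70.8%), and the 18 pairs between genotypes 16.5% (4.01% to 88.4%). Of the 4 most alike pairs, 3 joined tumors of different genotype. The 2 tumors labelled mesenteric lymph node, Bcl6 1 and Smc3/Bcl6 1, shared 11.6%.

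**Figure D4:**
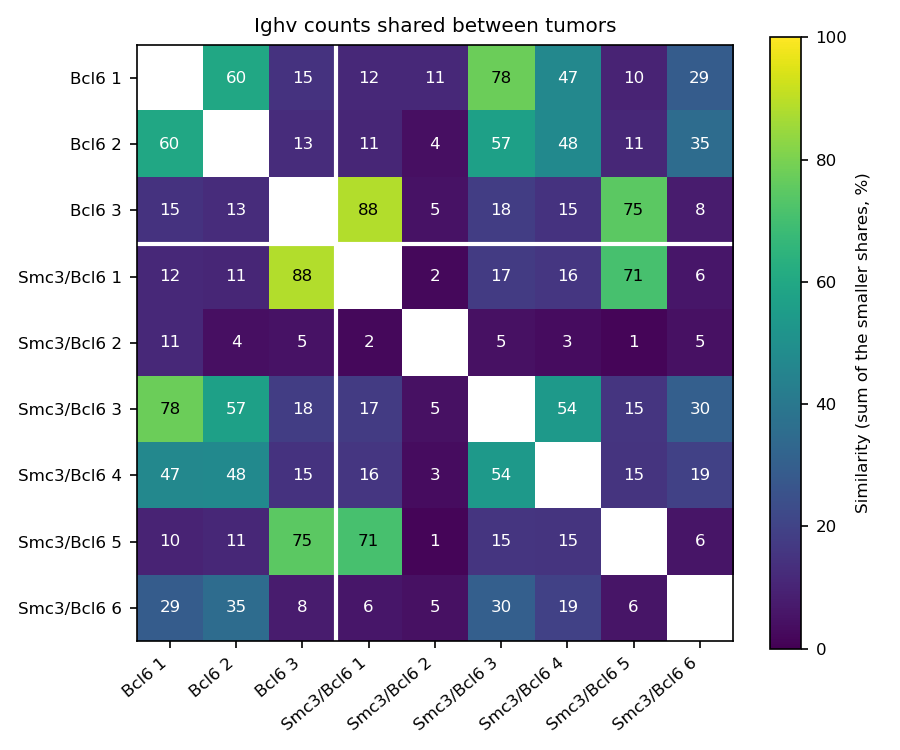
Heat map of the similarity of Ighv usage (%) for every pair of tumors, with white lines between Bcl6 and Smc3/Bcl6. The brightest cells, 88 for Bcl6 3 with Smc3/Bcl6 1 and 78 for Bcl6 1 with Smc3/Bcl6 3, join tumors of different genotype, and the row of Smc3/Bcl6 2 is dark throughout.

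The joining segments, which sit beside the variable gene in the same transcript, were counted separately, with 682 to 6590 counts per tumor. Ighj3 took 85.1% of joining segment counts in Bcl6 tumor 3 and 79.8% in Smc3/Bcl6 tumor 1, the pair that shared most variable genes. In Smc3/Bcl6 tumor 5, also led by Ighv3-1, Ighj3 took 2.15% and Ighj2 took 77.1%. Ighj4 took 76.4% in Smc3/Bcl6 tumor 2 and Ighj1 took 70.7% in Smc3/Bcl6 tumor 6. Where Ighv counts were spread the joining segments were spread too, with a leading share of 36.4% and 37.7% in Bcl6 tumors 1 and 2 and 38.7% and 37.2% in Smc3/Bcl6 tumors 3 and 4.

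Kappa light chain variable (Igkv) genes, which pair with the heavy chain but lie on another chromosome, divided the tumors in much the same way. Igkv3-4 led all 3 Ighv1-64-led tumors, with 77.5%, 72.1% and 68.4% of Igkv counts in Bcl6 tumors 1 and 2 and Smc3/Bcl6 tumor 3. Igkv5-39 led all 3 Ighv3-1-led tumors, with 91.6% in Bcl6 tumor 3, 87.9% in Smc3/Bcl6 tumor 1 and 98.2% in Smc3/Bcl6 tumor 5. It also led Smc3/Bcl6 tumor 6 with 61.4%, where the heavy chain was led by Ighv9-4, so the kappa leader did not fix the heavy leader.

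Of the remaining 2 tumors, Smc3/Bcl6 tumor 4 was the most even on both chains. Smc3/Bcl6 tumor 2 was the least even on the heavy chain only, with an effective number of Igkv genes of 2.31. In Smc3/Bcl6 tumor 2, Igkv4-50 took 62.8% and Igkv4-57 34.0%, beside 92.4% for Ighv8-12. In Smc3/Bcl6 tumor 4, Igkv6-15 led with 25.3%, and the effective number of Igkv genes was 33.4, against 1.16 to 6.22 in the other 8 tumors. Bcl6 tumor 3 and Smc3/Bcl6 tumor 1 shared 92.0% of Igkv usage, the rank behind Bcl6 tumor 3 and Smc3/Bcl6 tumor 5 with 92.6%.

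Single genes were then compared between genotypes with edgeR's quasi-likelihood test on all 14057 genes that passed its filter on low counts, at the thresholds of the study (unadjusted p below 0.1 and absolute log2 fold change above 0.56). The filter kept 83 of the 102 Ighv genes, and 19 were too low to test. Among the 83, 4 passed as higher in Smc3/Bcl6 tumors and 0 as lower. Over all genes tested 1.28% passed as higher and 0.868% as lower. No Ighv gene had an adjusted p below 0.05 or an unadjusted p below 0.05 in edgeR, against 0% and 0.562% of all genes. DESeq2 gave 0 at an adjusted p below 0.05 and 2 at an unadjusted p below 0.05. The share over all genes at that unadjusted p was not counted for DESeq2. At the thresholds of the study DESeq2 passed 4 of the 83 as higher and 0 as lower, against 342 and 101 of 14057 genes. In 0 of the 83 did the genotypes fail to overlap, against 0.484% of all genes.

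Each of the 4 genes was far above the rest in 1 or 2 Smc3/Bcl6 tumors. Ighv9-4 (ENSMUSG00000094322.1, chr12:114299961-114300389) had 4.94, 0.594 and 1.51 CPM in the 3 Bcl6 tumors in order of replicate, and 0.555, 0.317, 3.03, 28.2, 0.0790 and 911 CPM in the 6 Smc3/Bcl6 tumors. Smc3/Bcl6 tumor 6 stood far above all others, and 3 of 6 Smc3/Bcl6 tumors lay below every Bcl6 tumor. The log2 fold change was 6.08 (SE 3.07, unadjusted p = 0.0761, adjusted p = 1.00 by edgeR), and it was 1.47 without Smc3/Bcl6 tumor 6.

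Ighv1-47 (chr12:114991108-114991580) had most of its counts in the same tumor. It had 101 CPM in Smc3/Bcl6 tumor 6, 0 to 3.39 CPM in the other 5 and 0.189 to 0.617 CPM in the Bcl6 tumors, for a log2 fold change of 5.20 (SE 2.70, unadjusted p = 0.0829 by edgeR). Without Smc3/Bcl6 tumor 6 it was too low to be tested, so it entered the test only through the group where it was high. Ighv1-59 (chr12:115335082-115335514) had 210 CPM in Smc3/Bcl6 tumor 2 and 42.3 CPM in Smc3/Bcl6 tumor 6, 0 to 15.8 CPM in the other 4 and 1.03 to 4.23 CPM in Bcl6 tumors, for a log2 fold change of 4.40 (SE 2.24, unadjusted p = 0.0782 by edgeR). Without Smc3/Bcl6 tumor 2 the value was 2.53. Ighv1-34 (chr12:114851190-114851660) had 82.7 CPM in Smc3/Bcl6 tumor 2, at most 5.26 CPM in the others and 0.378 to 1.15 CPM in Bcl6 tumors, and its log2 fold change of 4.07 (SE 2.24, unadjusted p = 0.0987 by edgeR) became 0.72 without that tumor. The adjusted p of all 4 was 1.00, and none of the 4 passed without Bcl6 tumor 1, 2 or 3.

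**Figure D5:**
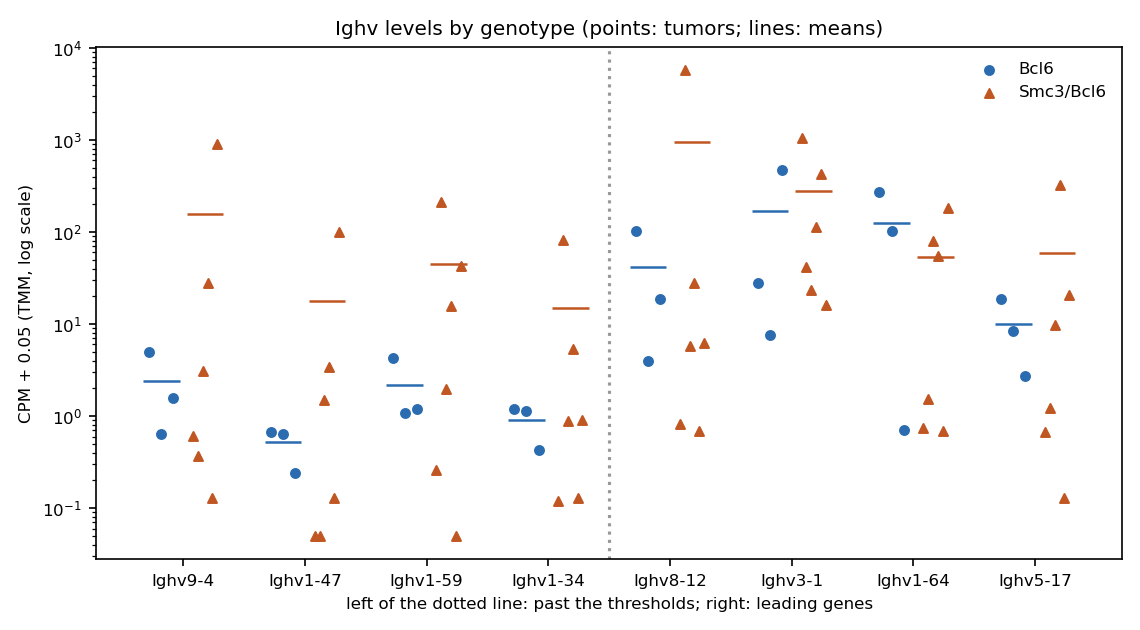
CPM (TMM scale, with 0.05 added so that 0 can be drawn, log axis) of 8 Ighv genes in each tumor, circles for Bcl6 and triangles for Smc3/Bcl6, with lines at the group means. The 4 genes past the thresholds, left of the dotted line, each have 1 or 2 Smc3/Bcl6 tumors far above the rest, and the genotypes overlap in all 8.

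The genes that led tumors did not pass. Ighv8-12 reached 5734 CPM in Smc3/Bcl6 tumor 2 and 0.632 to 27.9 CPM in the other 5, against 103, 3.94 and 18.6 CPM in Bcl6 tumors, for a log2 fold change of 4.53 (SE 3.13, unadjusted p = 0.179 by edgeR). It turned to -2.29 without Smc3/Bcl6 tumor 2. Ighv3-1 had 28.0, 7.61 and 473 CPM in Bcl6 tumors and 1048, 41.4, 23.5, 113, 426 and 16.1 CPM in Smc3/Bcl6 tumors, with a log2 fold change of 0.71 (SE 1.52). It was -0.45 without Smc3/Bcl6 tumor 1 and 3.97 without Bcl6 tumor 3, where it passed the thresholds (unadjusted p = 0.0665 by edgeR). Ighv1-64 had 272, 103 and 0.662 CPM against 0.694, 1.48, 80.1, 54.6, 0.632 and 184 CPM, with a log2 fold change of -1.22 (SE 1.70), which was 0.037 without Bcl6 tumor 1 and -2.18 without Smc3/Bcl6 tumor 6. The genotypes overlapped for each of them.

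Levels of Ighv genes varied between tumors of a genotype more than those of all genes tested. The genes were not matched on level, and low counts widen the spread of log2 CPM. For the 83 genes, log2 CPM had a median SD of 2.58 over the Smc3/Bcl6 tumors and 1.62 over the Bcl6 tumors, and 0.714 and 0.354 for all genes tested. Log2 fold changes ranged from -1.71 to 6.08 with a median SE of 1.61. They were positive for 69 of the 83 (83.1%), with a median of 0.94, against 57.4% and 0.06 of all genes tested. This direction rested on Smc3/Bcl6 tumor 4, the tumor with most genes in use, since without it 17 of 74 were positive and the median was -0.82. In that fit 2 of the 74 passed as higher and 6 as lower, against 191 and 148 of 13762 genes. With library size set to the Ighv total, which compares shares, 34 of 83 were positive with a median of -0.16. There 4 of the 83 passed as higher and 3 as lower, against 31 and 194 of 14057 genes.

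When same-numbered tumors 1 to 3 were paired by a replicate block, 8 of 71 genes were positive with a median of -1.34, 0 passed as higher and 1 as lower, against 0.337% and 1.9% of 13360 genes in that fit. Ighv9-4 had a log2 fold change of -1.004 there, in a fit that does not hold Smc3/Bcl6 tumor 6.

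Other genes of the locus and of its recombination were compared in the same fit, in which 1.28% of all genes tested passed as higher. Of 7 heavy chain constant genes tested, 1 passed as higher, Ighe, with 18.4, 28.5 and 38.7 CPM in Bcl6 and 39.2 to 163 CPM in Smc3/Bcl6 tumors (log2 fold change 1.92, SE 0.49, unadjusted p = 0.00272, adjusted p = 1.00 by edgeR). The genotypes did not overlap for Ighe, by the margin of 38.7 to 39.2 CPM, and 0.484% of all genes tested did not overlap. Ighm, the IgM constant gene, had 21174, 6169 and 9942 CPM in Bcl6 and 23807, 66172, 7098, 29616, 7144 and 16496 CPM in Smc3/Bcl6 tumors. Ighv counts came to 5.96, 7.25 and 8.09 per 100 Ighm counts in Bcl6 and 7.80, 9.38, 6.76, 11.2, 7.69 and 10.3 in Smc3/Bcl6 tumors, so that they followed Ighm within a narrow range.

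Of 24 diversity and joining segments only 5 were high enough to test, and 3 of the 5 passed as higher, against 1.28% of all genes tested. Ighj4 had a log2 fold change of 2.82 (SE 1.46) with 533 CPM in Smc3/Bcl6 tumor 2, Ighj1 of 1.84 (SE 0.99) and Ighd1-1 of 4.40 (SE 1.56) with 20.8 CPM in Smc3/Bcl6 tumor 5. The recombinase genes Rag1 and Rag2 had 7 and 5 counts over all 9 tumors. Of the 12 recombination and hypermutation genes tested, among them Ung, which removes uracil from DNA, 0 passed, and 0 of 8 B-cell receptor partners passed.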

How the data were processed

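RNA from 9 lymphomas was sequenced, 3 Bcl6 and 6 Smc3/Bcl6, 1 library per tumor. The authors aligned the reads to mm10 with the nf-core RNA-seq pipeline and STAR, and deposited the counts per gene from featureCounts without normalization. Their processing notes also name R 4.0.2 and DESeq2 1.28.1. Every column belonged to a sample (0 did not). GENCODE M21 (GRCm38) held 97.9% of the gene identifiers and supplied gene positions, biotypes, exon lengths and V exon sequences. The members and lists were chosen with earlier results of these data known. Shares are of the counts of the 102 members and carry 95% Wilson intervals, and a count of 0 was given an upper limit of 3 counts. The comparison of genotypes used the quasi-likelihood test of edgeR 4.0.16 (R 4.3.3) after TMM scaling and its filter on low counts, p-values were adjusted by Benjamini-Hochberg over all genes tested, and DESeq2 1.42.0 was among the alternatives. The test was checked on simulated counts. V exons were aligned with Biopython 1.88. Once genotype means were subtracted, tumors 1, 2 and 3 of the genotypes correlated with their namesakes at r = 0.443, 0.113 and 0.155 over all genes tested, and at -0.403, -0.0556 and -0.686 over the Ighv genes. The numbers come from the labels, which do not say what they mark, and nothing shows that namesakes are true pairs. As every correlation over all genes was above 0.1, they were treated as possible pairs in an alternative fit with a replicate block. The main fit did not pair them, and the blocked values stand beside the results they change. Genes named are those ranked at the top or next in a tumor, the 10 with the highest mean share, the leaders of families above a mean share of 1%, up to 10 in each direction past the thresholds, and the fixed lists, some genes of which are not reported here. Genes chosen after their values were seen are Ighv1-9, Ighv1-12, Ighv3-6, Ighv8-13 and Ighv9-3. Segments of the locus were also set after the values were seen.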

Additional observations from a re-analysis of the deposited data

Results flagged for a closer look

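Within the 6 Smc3/Bcl6 tumors, 37 shares and evenness measures were examined for a single tumor that stood apart by Dixon's 95% criterion on the gap to the nearest tumor over the whole range, and 16 did so, all on the high side, with ratios from 0.687 to 0.987. Some of these genes were named because they ranked at the top or next in a tumor, so a single high tumor was partly built in. Shares of a tumor also sum to 100%, so the 16 are not independent. The number that chance alone would single out is therefore not known. Smc3/Bcl6 tumor 2 stood apart for Ighv8-12 (92.4%), family 8 (92.5%) and Ighv1-34 (1.33%). Smc3/Bcl6 tumor 6 stood apart for Ighv9-4 (53.5%), family 9 (55.2%), Ighv1-53 (10.02%) and Ighv1-47 (5.95%). Smc3/Bcl6 tumor 4 stood apart for Ighv5-17 (9.77%), family 14 (6.50%), family 7 (6.80%), Ighv14-3 (5.26%), Ighv7-3 (4.84%) and Ighv1-66 (2.25%). Smc3/Bcl6 tumor 3 did so for Ighv1-56 (8.95%) and Ighv1-69 (5.99%), and Smc3/Bcl6 tumor 1 for Ighv2-4 (2.47%). No explanation of these values was tested.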

How the results depend on the processing

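The count of Ighv genes higher in Smc3/Bcl6 (4) was 0 at an unadjusted p below 0.05, 9 without the filter on low counts, 1 with the tissue label as covariate, 0 with the replicate block and 1 without Bcl6 tumor 3 and Smc3/Bcl6 tumor 1, an alternative added after the data were seen. It ranged from 0 to 8 over fits without 1 tumor. The 8 were of 83 without Smc3/Bcl6 tumor 5, against 186 of 13843 genes. The count of lower genes (0) was 3 with library size set to the Ighv total and 1 with the replicate block. It ranged from 0 to 6 without 1 tumor, and the 6 were of 74 without Smc3/Bcl6 tumor 4, against 148 of 13762 genes. Over all genes, higher genes numbered 46 of 14057 at an unadjusted p below 0.05 and 576 of 26445 without the filter. They numbered 130 of 14057 with the tissue label, 45 of 13360 with the block and 248 of 14502 without the 2 tumors. Lower genes numbered 194 of 14057 with the Ighv total and 254 of 13360 with the block. Of 17 named Ighv genes, 14 changed the sign of their log2 fold change under at least 1 alternative. Ighv1-34, Ighv1-47 and Ighv1-59 kept it in each that could test them. Ighv1-47 could be tested in 11 alternatives, but not in the fit that left out Smc3/Bcl6 tumor 6. Changes of sign in a gene that passed the thresholds in either fit were those of Ighv14-3 (-2.97, within -2.97 to 2.53 over fits without 1 tumor) and Ighv7-3 (-1.85, within -1.85 to 2.30) without Smc3/Bcl6 tumor 4 and that of Ighv9-4 (-1.004) under the replicate block, a fit without Smc3/Bcl6 tumor 6. In 0 of these fits did a member reach an adjusted p below 0.05. The difference in mean share of the leading gene (16.6 percentage points) stayed positive, from 8.33 without Smc3/Bcl6 tumor 2 to 28.7 without Bcl6 tumor 3, and that in family 1 (-21.2) negative, from -38.9 to -10.05. The difference in effective number (-0.96) ranged from -7.75 to 3.80, that in family 3 (2.24) from -10.6 to 27.5, and that in median similarity (-1.60) from -13.5 to 0.968, so the directions of these 3 cannot be stated. Other minimum counts, thinning to the lowest Ighv total, exon length and IG_V_gene genes alone moved them by less than the spread between tumors. Reads of mutated or near-identical V exons may be misplaced, and intervals cover counting error only.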

Other observations

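Xist and Y-linked transcripts were both counted in every library. Xist had 2.34 to 121 CPM (of the library total) and the Y-linked gene Ddx3y 1.83 to 255, and Smc3/Bcl6 tumor 2 had the lowest value of both. No label gives the sex of a mouse or says that animals were pooled.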
